A study of Mus musculus with 6 samples.

Results

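The cells described are Gata3 Icos Cxcr6 innate lymphoid cells of mouse bone marrow, 583 of the 44399 cell barcodes (1.31%) that held at least 500 genes, at least 1000 UMIs and at most 10% UMIs of mitochondrially encoded genes. A UMI (unique molecular identifier) stands for 1 captured RNA molecule. A barcode was taken as a member where it held at least 1 Gata3 UMI and at least 2 UMIs summed over Icos and Cxcr6. It also had to hold at most 2 UMIs of the CD3 chains Cd3d, Cd3e and Cd3g, at most 2 of the natural killer (NK) receptors Klrd1, Ncr1 and Klrb1c, and at most 4 of the basophil proteases Mcpt8 and Prss34. For short, these cells are called Gata3+ ILCs.

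Innate lymphoid cells (ILCs) are lymphocytes that lack rearranged antigen receptors. Group 2 ILCs (ILC2s) depend on the transcription factor GATA3 and on RORα and BCL11B. They respond to the alarmin interleukin 33 through the receptor ST2, the product of Il1rl1, to interleukin 25 through Il17rb, and to interleukins 7, 2 and 18. Mature ILC2s in tissues secrete interleukins 5 and 13, while the bone marrow is known to hold their precursors and immature forms. Txnip encodes the thioredoxin-interacting protein. This alpha-arrestin restrains glucose uptake and the activity of thioredoxin, and its transcription is known to be driven by the glucose-sensing MondoA-Mlx factors.

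The series compared sorted marrow cells of 3 Txnip-KO and 3 WT mouse samples by droplet-based sequencing of the 3′ ends of transcripts. The labels give the genotypes as Txnip-KO and wildtype and the tissue as bone marrow. The allele, the deleted part of the gene, the sorted population, and the strain, sex and age of the mice are not named in the labels. Whether samples of 1 genotype are separate mice is not stated either, so p-values here describe the spread among these 6 samples, and that spread may be technical. Txnip-KO 1, 2 and 3 gave 57, 94 and 95 Gata3+ ILCs, and WT 1, 2 and 3 gave 106, 102 and 129. Their UMIs summed to 345811, 635682 and 533984 in the Txnip-KO samples and to 822218, 699971 and 912477 in the WT samples. The median UMIs per cell were 4834, 4554 and 3798 in Txnip-KO, against 5640, 4908.5 and 5032 in WT (exact permutation p = 0.1, two-sided, the smallest that 3 samples against 3 can give), so the Txnip-KO cells were the shallower ones. The libraries shared between 9 and 23 cell barcodes per pair, and no 2 libraries shared a barcode of a Gata3+ ILC (0 in all pairs).

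A few of these barcodes carried RNA of other lineages. Scrublet marked 64 of 583 (10.98%) as likely doublets, against 5.98% of all barcodes past the filter, and 32 held at least 10 UMIs summed over 15 genes of B cells, granulocytes, red cells and plasmacytoid dendritic cells. The 15 genes were Igkc, Jchain, Cd79a, Ebf1, Ly6d, Dntt, S100a8, S100a9, Elane, Mpo, Lyz2, Siglech, Hba-a1, Hba-a2 and Hbb-bs. Leaving out these 32 barcodes takes out UMIs of those genes by design, so it is no test of them. A single Txnip-KO 2 barcode held 4622 Igkc UMIs, and a single Txnip-KO 1 barcode held 144 S100a8 UMIs. Summed markers of the B lineage stood at 178 to 7620.2 CPM (counts scaled to the total UMIs of a sample's Gata3+ ILCs, the usual CPM unit) in Txnip-KO samples, against 446 to 584 CPM in WT samples. Neutrophil markers summed to 146 to 1888 CPM in Txnip-KO, against 98.6 to 161 CPM in WT. Results that rest on such barcodes are given with and without them.

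Markers of ILC2s stood above their level in all other barcodes. The values in this paragraph are CPM averaged over the 6 samples, and they describe the cells without a test, since the cells were chosen from the same counts. Gata3, Icos and Cxcr6, which the rule used, stood at 918, 529 and 478 CPM in Gata3+ ILCs, against 16.2, 4.71 and 3.06 CPM in all other barcodes past the filter. Among genes that the rule did not use, Rora stood at 708 against 16.6 CPM, Arg1, the arginase that marks ILC precursors and lung ILC2s, at 305 against 1.93 CPM, the transcription factor gene Maf at 448 against 9.80 CPM and Bcl11b at 335 against 7.02 CPM. The interleukin receptors followed, with Il7r at 1234 against 80.7 CPM, Il17rb at 145 against 2.63 CPM, Il1rl1 at 291 against 15.3 CPM and Il2ra at 106 against 1.23 CPM. Lmo4, a LIM-domain cofactor named among the markers of these cells, stood at 2191 against 204 CPM, and Id2, the inhibitor of DNA binding required by all ILCs, at 1835 against 156 CPM. For each of these genes, the lowest sample of Gata3+ ILCs lay above the highest sample of other barcodes. Part of the programme was shared with Rora-Tcf7-gated cells, which held UMIs of both genes within the CD3 and NK limits but did not pass the rule: Rora, on which they were chosen, stood at 791 and Bcl11b at 372 CPM there, above their levels in Gata3+ ILCs, Id2 at 1251 CPM and Lmo4 at 1318 CPM. The receptors were lower there, with Il7r at 419.7 CPM, Il1rl1 at 14.0 CPM and Il17rb at 12.8 CPM, as was Arg1 at 77.5 CPM. Lztfl1, a regulator of ciliary trafficking, stood at 836 against 41.8 CPM, Cysltr1, a receptor for cysteinyl leukotrienes, at 177 against 2.91 CPM, Ly6a at 555 against 34.2 CPM and Pxdc1 at 148 against 0.403 CPM. Transcripts of T cell receptor constant regions were also present, with Trbc1 at 596 against 56.4 CPM (1521 CPM in Rora-Tcf7-gated cells) and Trgc4 at 229 against 5.21 CPM, while CD3 chains were kept out by the rule.

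With every cell thinned to 2000 UMIs, which left 574 of the cells, the shares of Gata3+ ILCs with a UMI were 85.4% for Il7r, 83.8% for Lmo4, 92.3% for Id2, 56.4% for Rora and 44.4% for Il1rl1. In 3000 NK-gated cells (at least 3 UMIs of Klrd1, Ncr1 and Klrb1c and at most 2 of the CD3 chains) thinned alike, these shares were 15.2%, 20.6%, 66.6%, 4.90% and 0.467%. Markers of NK cells and ILC1s ran the other way: Eomes was found in 0.174% of thinned Gata3+ ILCs and in 31.6% of NK-gated cells, and Gzma in 0.348% and 66.4%. Of genes that ILC3s use, Il23r had 1 UMI and Ccr6 11 UMIs in all Gata3+ ILCs, and Il17a and Il17f had 0 UMIs there. Of the effector cytokine genes, an Il13 UMI was found in 11, an Il5 UMI in 8 and an Areg UMI in 3 of the 583 cells, whereas Il4 was found in 53 cells (9.09%) and Csf2 in 84 (14.4%). Klrg1, a receptor of mature ILC2s and of NK cells, was found in 2.96% of thinned Gata3+ ILCs and in 4.80% of NK-gated cells. Its level was 13.2 CPM in Gata3+ ILCs, against 2.49 CPM in all other barcodes, and each sample of Gata3+ ILCs (8.68 to 22.0 CPM) lay above the highest sample of other barcodes (3.35 CPM).

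**Figure D1:**
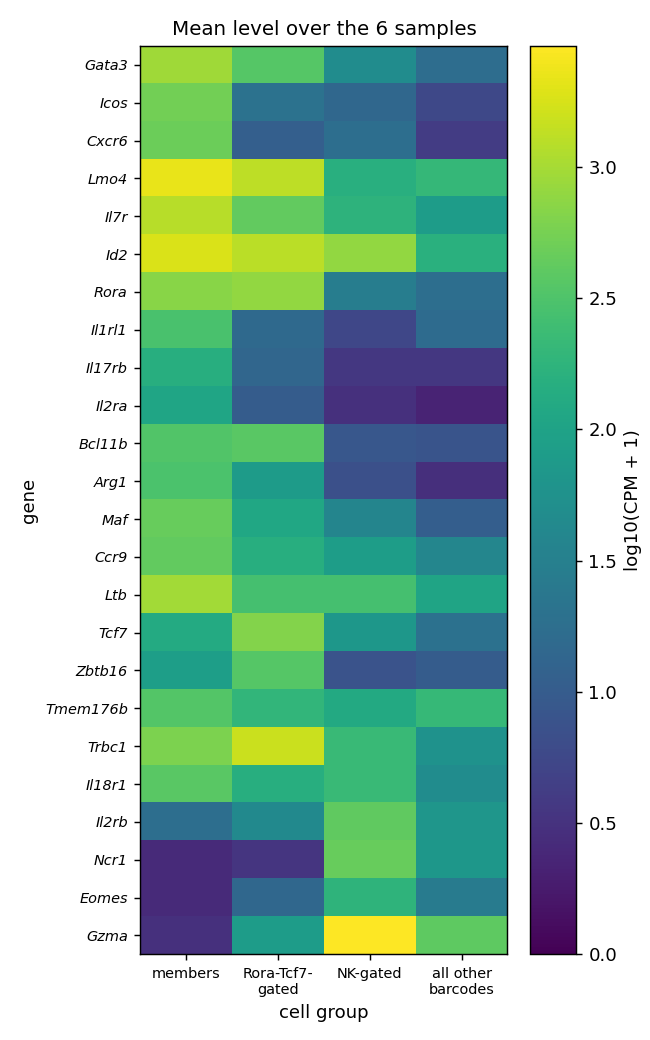
Mean level over the 6 samples of marker genes (rows) in the Gata3 Icos Cxcr6 innate lymphoid cells (members), in Rora-Tcf7-gated cells, in NK-gated cells and in all other barcodes (columns), as log10(CPM + 1). Members are brightest for Gata3, Icos, Cxcr6 and the ILC2 receptors Il7r (1234 CPM), Il1rl1 (291 CPM) and Il17rb (145 CPM), and darkest for Ncr1, Eomes and Gzma.

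Within the Gata3+ ILCs, cells with and without a UMI of Tcf7, the gene of the transcription factor TCF1 used by ILC progenitors, differed in their other genes. Tcf7 was found in 151 of 583 cells, between 23.4% and 35.1% of a sample's Gata3+ ILCs. Cells with Tcf7 were deeper, with a median of 7010 UMIs against 4298.5 UMIs in cells without, so levels are given as CPM. Il1rl1 stood at 56.0 to 199 CPM over the 6 samples in cells with Tcf7, against 222 to 651 CPM in cells without, and was lower with Tcf7 in every sample. Ly6a, which encodes the surface antigen Sca-1, stood at 69.0 to 370 CPM with Tcf7, against 525 to 1199.7 CPM without, and was likewise lower in every sample. The progenitor genes ran the opposite way in all 6 samples. Zbtb16, which encodes PLZF of ILC precursors, stood at 82.7 to 272 CPM with Tcf7, against 13.96 to 54.8 CPM without. Pdcd1, the gene of the inhibitory receptor PD-1, stood at 67.4 to 179.5 CPM with Tcf7, against 5.97 to 33.5 CPM without. Il18r1 stood at 297 to 970.5 CPM with Tcf7, against 167 to 358 CPM without. The ILC2 genes did not all run 1 way. Rora was higher with Tcf7 in all 6 samples, at 817 to 1436 CPM against 378 to 758 CPM without. Pooled over samples, Bcl11b stood at 395 CPM with Tcf7 and 288 CPM without, Arg1 at 286 and 301 CPM and Il17rb at 130 and 144 CPM. This split was chosen after the values were seen and is a description of these cells.

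The rule cut through a continuum of Icos and Cxcr6 counts. In all, 719 barcodes held Gata3 and at least 2 UMIs of Icos and Cxcr6, and the limits on NK genes, CD3 chains and basophil proteases removed 131, 13 and 1 of them, some under more than 1 limit. Of the 583 kept, 128 stood just inside with a sum of exactly 2, and 117 held a sum of at least 10. Just outside were 186 barcodes with Gata3 and a sum of 1. Pooled over samples, Il1rl1 stood at 299 CPM in the cells just inside and at 110 CPM in those just outside, Il7r at 1174 and 608 CPM, and Rora at 607 and 391 CPM. A further 143 barcodes met every limit but held no Gata3, and they stood at 37.3 CPM for Il1rl1 and 46.6 CPM for Rora.

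The first comparison asked how frequent these cells were in each genotype. Gata3+ ILCs made up 0.894%, 1.11% and 1.15% of the barcodes past the filter in Txnip-KO 1, 2 and 3, against 1.61%, 1.36% and 1.77% in WT 1, 2 and 3. Every Txnip-KO sample lay below every WT sample. The mean share was 1.05% ± 0.140 in Txnip-KO and 1.58% ± 0.210 in WT (SD, n = 3 each), 0.666 times as high (two-sided exact permutation p = 0.1, the smallest that 3 against 3 allow, so no call was possible). The 95% Wilson intervals, which cover counting error only, ran from 0.690% to 1.16% in the lowest Txnip-KO sample and from 1.12% to 1.65% in the lowest WT sample. Since shallower cells pass a UMI rule less often, barcodes of at least 4000 UMIs were thinned to 4000 UMIs and put through the rule again. The share was then 0.562%, 0.560% and 0.676% in Txnip-KO 1, 2 and 3, against 1.19%, 0.856% and 1.34% in WT 1, 2 and 3, again without overlap (ratio 0.530; exact permutation p = 0.1). The cut at 4000 UMIs left out 18, 41 and 51 of the 57, 94 and 95 Gata3+ ILCs of Txnip-KO 1, 2 and 3. In WT 1, 2 and 3 it left out 26, 34 and 35 of 106, 102 and 129, and the part of this unequal loss was not tested. The cut at 2000 UMIs left out 0, 1 and 5 Gata3+ ILCs in Txnip-KO and 1, 1 and 1 in WT. At 2000 UMIs the groups overlapped, with means of 0.654% ± 0.113 in Txnip-KO and 0.802% ± 0.217 in WT (SD, n = 3 each; exact permutation p = 0.4). Cells of the sort differ in other classes too, so a lower share cannot be told apart from more of the other sorted cells.

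**Figure D2:**
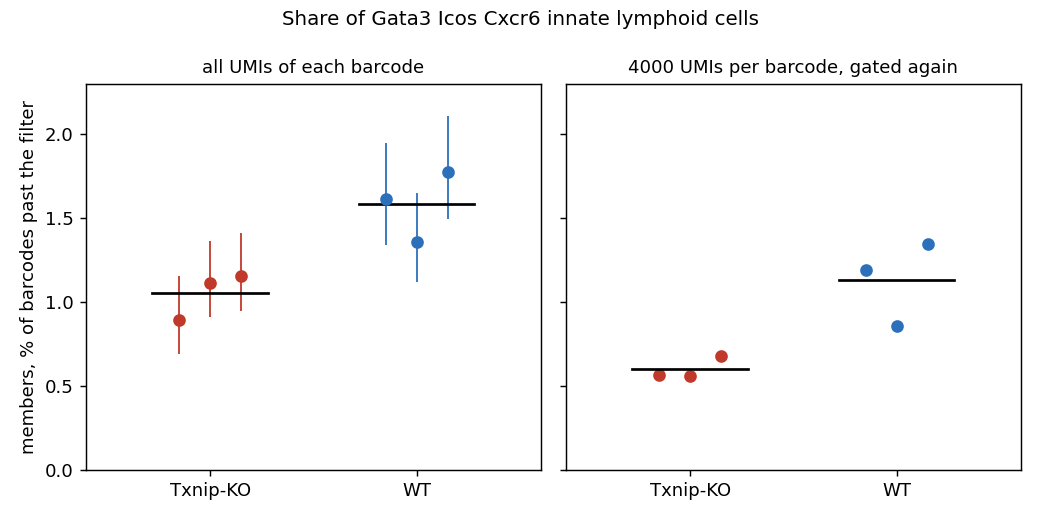
Share of members (Gata3 Icos Cxcr6 innate lymphoid cells) among barcodes past the filter, in % (y axis), for each Txnip-KO and WT sample, from all UMIs with 95% Wilson intervals (left) and after thinning barcodes of at least 4000 UMIs to 4000 UMIs and gating again (right). Black bars are group means, and the 3 Txnip-KO samples lie below the 3 WT samples in both panels.

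Dividing cells were a small part of both groups. At 2000 UMIs per cell, 5.26%, 8.60% and 7.78% of Gata3+ ILCs held an Mki67 or Top2a UMI in Txnip-KO 1, 2 and 3, against 7.62%, 14.9% and 7.03% in WT 1, 2 and 3. The groups overlapped (exact permutation p = 0.6).

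The second comparison asked which genes differed between Txnip-KO and WT within Gata3+ ILCs. UMIs were summed per sample over these cells, and 7278 genes with enough counts were tested with edgeR's quasi-likelihood test and Benjamini-Hochberg adjustment at 0.05. Of these, 25 rose in Txnip-KO (0.344% of the genes tested) and 17 fell (0.234%), 42 in all (0.577%). At an unadjusted p under 0.05 stood 976 genes. From here on levels are CPM after TMM scaling over the tested genes, and fold changes are log2 of Txnip-KO over WT. Txnip stood at 0, 14.7 and 0 CPM in Txnip-KO 1, 2 and 3, against 642, 386 and 618 CPM in WT 1, 2 and 3. These are 0, 9 and 0 UMIs in Txnip-KO and 498, 262 and 531 UMIs in WT. The fall was -6.47 (SE 0.42; Benjamini-Hochberg adjusted p = 1.24e-07 in edgeR). Without normalization beyond total UMIs, WT Gata3+ ILCs held 374 to 606 CPM of Txnip, and no sample's other barcodes held more than 297 CPM. The Txnip gene spans 96557957 to 96561883 of chromosome 3 in GRCm38, plus strand, and 3′ counts outside the deleted part would not test the deletion.

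Arrdc4, the arrestin-family gene closest to Txnip, was one of the largest rises. It stood at 76.5, 68.6 and 104 CPM in Txnip-KO 1, 2 and 3, against 9.02, 14.7 and 16.3 CPM in WT 1, 2 and 3, so that the lowest Txnip-KO sample lay above every WT sample. The log2 fold change was 2.61 (SE 0.29; Benjamini-Hochberg adjusted p = 9.38e-05 in edgeR). Both genes are known targets of MondoA-Mlx, which binds carbohydrate response elements made of paired E-box-like motifs, so their promoters are shown. The sequences are RefSeq's for GRCm38.p6, from 250 bases before to 50 bases after the annotated start, and capitals mark the matches found.

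Txnip promoter, chr3:96557707-96558006, plus strand: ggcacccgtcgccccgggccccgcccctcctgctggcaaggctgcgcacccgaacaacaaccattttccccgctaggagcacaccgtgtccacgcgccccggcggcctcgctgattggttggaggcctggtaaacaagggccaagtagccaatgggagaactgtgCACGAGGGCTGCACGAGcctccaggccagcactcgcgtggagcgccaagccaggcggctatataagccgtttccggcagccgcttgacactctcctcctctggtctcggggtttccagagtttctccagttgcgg

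Arrdc4 promoter, chr7:68749189-68749488, minus strand: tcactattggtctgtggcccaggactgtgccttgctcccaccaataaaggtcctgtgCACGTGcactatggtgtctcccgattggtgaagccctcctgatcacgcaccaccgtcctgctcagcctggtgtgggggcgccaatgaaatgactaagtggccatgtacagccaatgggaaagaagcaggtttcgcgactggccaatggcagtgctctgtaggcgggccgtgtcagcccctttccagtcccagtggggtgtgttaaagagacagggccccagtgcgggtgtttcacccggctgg

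The motifs searched on both strands were the E-box CACGTG and a paired form, CACGNG followed after 5 bases of any kind by a further CACGNG. The Txnip window held 1 match of the paired form, which begins 85 bases before the start. The Arrdc4 window held 1 CACGTG, which begins 193 bases before the start. Over 32851 promoters of this length, 2349 (7.15%) held CACGTG and 16 (0.0487%) held the paired form. Among the 25 promoters of genes called higher 2 held CACGTG, those of Polr3gl and Arrdc4, and among the 16 of genes called lower 2 did, those of Eif4a1 and Actg1. A match says only that these letters stand in the window.

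Other members of this gene family and other genes known to respond to MondoA were less uniform. The list also holds Txnip and Arrdc4. Of its 10 tested genes 2 rose, Arrdc4 and Klf10, and 1 fell, Txnip, against 0.344% that rose and 0.234% that fell over all genes tested. The median fold change of the 10 was 0.30, against 0.00160 over all genes tested. Klf10, a Krüppel-like repressor, stood at 93.5, 58.8 and 73.1 CPM in Txnip-KO, against 25.8, 16.2 and 20.9 CPM in WT (log2 fold change 1.78, SE 0.27; adjusted p = 0.00185, edgeR with Benjamini-Hochberg adjustment). With cells gated again at 4000 UMIs, Klf10 stood at 1.68 and lost its call (adjusted p = 0.0537 by edgeR with Benjamini-Hochberg adjustment). Mlx, the partner of MondoA, averaged 25.04 CPM in Txnip-KO and 36.4 CPM in WT and was not called (-0.51, edgeR adjusted p = 0.448). Pfkfb3, the glycolytic activator, averaged 21.7 CPM in Txnip-KO and 11.7 CPM in WT and was not called (0.95, edgeR adjusted p = 0.350).

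Ddit4, Klf9, Acot1, Polr3gl and Esyt2 also rose. Ddit4, an inhibitor of mTORC1 induced by stress and glucocorticoids, stood at 255, 147 and 109.7 CPM in Txnip-KO 1, 2 and 3, against 36.1, 36.8 and 44.2 CPM in WT 1, 2 and 3 (2.07, SE 0.27). Klf9, a glucocorticoid-responsive Krüppel-like factor, stood at 153, 162 and 63.5 CPM in Txnip-KO, against 21.9, 23.6 and 34.9 CPM in WT (2.20, SE 0.31). In both genes the lowest Txnip-KO sample was Txnip-KO 3, and it still lay above every WT sample. Acot1, a cytosolic acyl-CoA thioesterase with near-identical relatives that could share its reads, stood at 65.2, 50.6 and 67.4 CPM in Txnip-KO, against 10.3, 8.84 and 13.96 CPM in WT (2.41, SE 0.30). Polr3gl, a subunit of RNA polymerase III, stood at 133, 122 and 75.1 CPM in Txnip-KO, against 32.2, 33.9 and 24.4 CPM in WT (1.86, SE 0.25). Polr3gl lies on the minus strand of chromosome 3, and its 3′ end is 15988 bases beyond the end of Txnip. Esyt2, a tether between the endoplasmic reticulum and the plasma membrane, averaged 112 CPM in Txnip-KO and 45.1 CPM in WT (1.30, SE 0.19). These 5 genes had adjusted p between 0.000359 and 0.00152 in edgeR's quasi-likelihood test with Benjamini-Hochberg adjustment.

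Hist1h2ap, Gstp1, Pde7b and St6galnac6 rose as well. Hist1h2ap, a replication-dependent histone H2A gene with near-identical copies, stood at 31.2, 171 and 88.5 CPM in Txnip-KO 1, 2 and 3, against 6.45, 14.7 and 19.8 CPM in WT 1, 2 and 3 (2.90, SE 0.46). It was found in 23 of 246 Txnip-KO cells and 15 of 337 WT cells, of which Scrublet marked 11 and 9 as likely doublets. Gstp1, a glutathione transferase with a near-identical neighbour, stood at 22.7, 53.9 and 19.2 CPM in Txnip-KO, against 7.74, 2.95 and 3.49 CPM in WT (2.77, SE 0.51). It rested on 51 UMIs in 31 Txnip-KO cells and 11 UMIs in 11 WT cells. Pde7b, a cAMP phosphodiesterase, averaged 63.7 CPM in Txnip-KO and 16.4 CPM in WT (1.94, SE 0.38), and St6galnac6, a sialyltransferase, 40.05 CPM in Txnip-KO and 13.9 CPM in WT (1.51, SE 0.30). Leaving out single libraries ended the calls of 3 of these genes. Gstp1 was lost without Txnip-KO 2, WT 2 or WT 3 (2.07 to 3.27 over all such fits), and Pde7b and St6galnac6 were lost without Txnip-KO 3 or any WT library (1.30 to 2.298 and 1.38 to 1.63).

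A few cytokine receptor genes rose. Of 27 tested cytokine receptor and signalling genes, 3 rose, Il2ra, Il18r1 and Ifngr1, and none fell (0). Over all genes tested 0.344% rose and 0.234% fell. The median fold change of the 27 was 0.25, and 8 of them (29.6%) had every Txnip-KO sample above every WT sample, against 9.77% of all genes tested. Below every WT sample in all Txnip-KO samples were 3 genes (11.1%), Ifngr2, Il27ra and Il2rg, against 9.82% of all genes tested. Il2ra, the high-affinity chain of the interleukin 2 receptor, stood at 162, 152 and 150.1 CPM in Txnip-KO 1, 2 and 3, against 70.9, 41.3 and 79.1 CPM in WT 1, 2 and 3 (1.25, SE 0.21; edgeR adjusted p = 0.00582). The Txnip-KO samples lay within a narrow band above all WT samples. At 2000 UMIs per cell, between 21.1% and 29.0% of Txnip-KO cells held an Il2ra UMI, against 10.9% to 19.5% of WT cells.

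Il18r1, the interleukin 18 receptor, stood at 660.4, 439 and 400.3 CPM in Txnip-KO 1, 2 and 3, against 263, 264 and 297 CPM in WT 1, 2 and 3 (0.85, SE 0.17; edgeR adjusted p = 0.0251). Ifngr1, a chain of the interferon gamma receptor, which restrains ILC2s in mice, stood at 300.5, 179.6 and 321 CPM in Txnip-KO, against 156, 95.8 and 133 CPM in WT (1.04, SE 0.22; edgeR adjusted p = 0.0326). Both had separate groups, with Ifngr1 closest in Txnip-KO 2 and WT 1. Il7r, through which interleukin 7 maintains ILCs, stood at 1998, 1299.7 and 1293 CPM in Txnip-KO, against 935, 1061 and 1005 CPM in WT, and missed the threshold (0.61, SE 0.15; edgeR adjusted p = 0.0747). The DESeq2 Wald test called it (0.61, adjusted p = 0.0234), as did edgeR without Txnip-KO 2 (0.71, adjusted p = 0.0339) and on cells thinned to 2000 UMIs (0.65, adjusted p = 3.47e-05), but not edgeR on cells gated again at 4000 UMIs (0.53, adjusted p = 0.169). Il1rl1 stood at 371, 322 and 369 CPM in Txnip-KO, against 208, 280.0 and 244 CPM in WT, and was not called (0.54, SE 0.15; edgeR adjusted p = 0.128). Il17rb averaged 160.3 CPM in Txnip-KO and 138 CPM in WT (0.22, edgeR adjusted p = 0.601). Without any one of the WT libraries Il18r1 lost its call (0.61 to 0.98 over the fits that left out a library), and Ifngr1 did so without Txnip-KO 3 or any WT library (0.85 to 1.27). Gated again at 4000 UMIs, Il2ra and Il18r1 kept their calls (1.13 and 0.93), and Ifngr1 did not (0.71, edgeR adjusted p = 0.263).

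**Figure D3:**
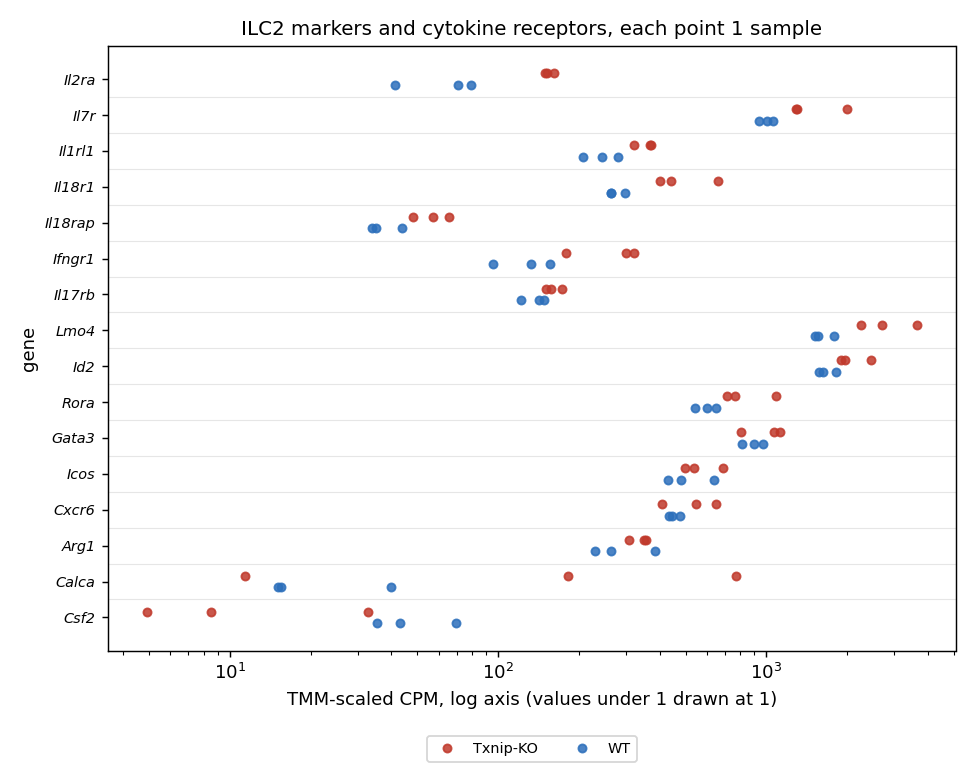
TMM-scaled CPM (x axis, log scale) of 16 ILC2 markers and cytokine receptors (rows) in members, each point 1 sample, Txnip-KO above WT in each row. The Il2ra groups are apart (162, 152 and 150.1 CPM in Txnip-KO against 41.3 to 79.1 CPM in WT), Gata3, Icos and Cxcr6 overlap, and Calca spans 11.4 to 774 CPM within Txnip-KO.

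Of 32 tested ILC transcription factor genes outside the rule, 1 was called, Lmo4, against 0.577% of all genes tested. In 5 of the 32 (15.6%) every Txnip-KO sample lay above every WT sample, against 9.77% of all genes tested. Lmo4 stood at 3642, 2245 and 2706 CPM in Txnip-KO 1, 2 and 3, against 1521, 1780 and 1562 CPM in WT 1, 2 and 3 (0.82, SE 0.14; edgeR adjusted p = 0.00801). The highest value was that of Txnip-KO 1, and the call was lost without WT 1 or WT 3 (0.60 to 0.96 over the fits that left out a library). Rora averaged 854 ± 202 CPM in Txnip-KO and 598 ± 55.4 CPM in WT (SD, n = 3 each; 0.51, edgeR adjusted p = 0.153), and Id2 2107 ± 311 and 1669 ± 127 CPM (0.33, edgeR adjusted p = 0.230). Gata3, Icos and Cxcr6, which the rule used and which are given as a description, averaged 998, 576 and 535 CPM in Txnip-KO and 893, 515 and 451 CPM in WT. Of the 14 tested ILC2 markers outside the rule, 3 rose (Lmo4, Il2ra and Calca) and none fell (0), with a median of 0.40. Over all genes tested 0.344% rose and 0.234% fell. In 8 of the 14 (57.1%) every Txnip-KO sample lay above every WT sample, against 9.77% of all genes tested. In 1 of them, Csf2 (7.14%), every Txnip-KO sample lay below every WT sample, against 9.82% of all genes tested. The Txnip-KO cells were shallower, and the shares of this list were not recomputed at equal depth. Lmo4 stayed called on cells gated again at 4000 UMIs (0.88) and on cells thinned to 2000 UMIs (0.85).

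Effector genes were sparse. Calca, the gene of the calcitonin gene-related peptide that ILC2s make, stood at 181, 11.4 and 774 CPM in Txnip-KO 1, 2 and 3, against 15.5, 39.8 and 15.1 CPM in WT 1, 2 and 3. It was called higher (3.82, SE 0.83; edgeR adjusted p = 0.0412), but the groups overlapped, since Txnip-KO 2 lay below every WT sample. Txnip-KO 3 alone held 402 of the 473 Txnip-KO Calca UMIs, and 56 of 246 Txnip-KO cells and 21 of 337 WT cells held one. The call was lost without Txnip-KO 3 (1.84, edgeR adjusted p = 0.266), without any one WT library (3.55 to 4.38) and by the DESeq2 Wald test. Csf2, the gene of GM-CSF, stood at 8.504, 4.90 and 32.7 CPM in Txnip-KO, against 69.6, 35.4 and 43.0 CPM in WT, and was not called (-1.66, SE 0.45; edgeR adjusted p = 0.123). All Txnip-KO samples lay below all WT samples, with 23 UMIs in 20 Txnip-KO cells and 115 UMIs in 64 WT cells. Without Txnip-KO 3 it was called lower (-2.96, edgeR adjusted p = 0.00752). Arg1 averaged 337 ± 26.8 CPM in Txnip-KO and 292 ± 81.6 CPM in WT (SD, n = 3 each), and its groups overlapped.

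Ltb, which encodes lymphotoxin beta, a membrane-bound cytokine of ILCs that shapes lymphoid tissue, fell. It stood at 726, 638 and 743 CPM in Txnip-KO 1, 2 and 3, against 1226, 1208 and 1387 CPM in WT 1, 2 and 3. The groups lay far apart beside their own spread (-0.86, SE 0.12; edgeR adjusted p = 0.000729). Almost all cells of both genotypes held an Ltb UMI, 229 of 246 in Txnip-KO and 321 of 337 in WT. Whether Ltb fell in all cells or in some of them was not tested. The call held in all 18 alternative fits, with fold changes from -0.96 to -0.80.

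Lars2, the mitochondrial leucyl-tRNA synthetase, stood at 235, 104.5 and 137 CPM in Txnip-KO 1, 2 and 3, against 732, 561 and 671 CPM in WT 1, 2 and 3 (-2.10, SE 0.21; edgeR adjusted p = 3.74e-05). Idi1, an isomerase of the mevalonate pathway, stood at 5.67, 8.16 and 5.77 CPM in Txnip-KO, against 32.2, 29.5 and 31.4 CPM in WT (-2.18, SE 0.38; edgeR adjusted p = 0.00938). Idi1 was the only called gene of 10 tested cholesterol synthesis genes, and its call was lost without WT 1 or WT 3 (-2.41 to -2.08). Stab2, the scavenger receptor gene stabilin 2, marked Gata3+ ILCs among these sorted cells, at 108 CPM against 0.263 CPM in all other barcodes. It stood at 17.0, 83.3 and 71.2 CPM in Txnip-KO 1, 2 and 3, against 195, 155 and 158 CPM in WT 1, 2 and 3 (-1.46, SE 0.28; edgeR adjusted p = 0.0197), found in 40 of 246 Txnip-KO cells and 138 of 337 WT cells. The Stab2 call was lost without WT 1 or WT 3 (-1.82 to -1.13) and by the DESeq2 Wald test. Cpa3, a protease gene of mast cells and basophils that progenitors also transcribe, stood at 82.2, 47.4 and 42.3 CPM in Txnip-KO, against 128, 134 and 131 CPM in WT (-1.25, SE 0.22; edgeR adjusted p = 0.00833). The call of Cpa3 was lost without WT 3 (-1.26, edgeR adjusted p = 0.0603) and with the same number of cells drawn from each sample (-1.31, edgeR adjusted p = 0.102). Basophil and mast markers outside the rule, Cpa3 among them, summed to 120 to 175 CPM in Txnip-KO and 193 to 268 CPM in WT, with Mcpt4 at 0 in both groups, and their part in the Cpa3 result was not tested.

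Actb, Pfn1, Vim, Actg1, Eif4a1, Nme2 and Hspe1 fell too. Actb stood at 4856, 5026 and 5856 CPM in Txnip-KO 1, 2 and 3, against 8487, 8307 and 8786 CPM in WT 1, 2 and 3 (-0.70, SE 0.09; edgeR adjusted p = 0.000610). Pfn1, which encodes the actin-binding protein profilin, averaged 1283 ± 166 CPM in Txnip-KO and 2136 ± 152 CPM in WT (-0.73), and the filament gene Vim 279 ± 23.3 and 470 ± 57.2 CPM (-0.75; SD, n = 3 each). Actg1 also fell (-0.53), and reads of actin genes could be shared with their copies. Eif4a1, an RNA helicase of translation initiation (-0.74), Nme2, a nucleoside diphosphate kinase (-1.05), and Hspe1, a mitochondrial chaperonin (-0.78), fell as well. Actb was called in every alternative fit, whereas Pfn1 was lost without WT 3, Nme2 without WT 2 or WT 3, Vim without Txnip-KO 3, WT 2 or WT 3, and Hspe1, Eif4a1 and Actg1 without Txnip-KO 3 or any WT library. Over those fits Pfn1 ran from -0.85 to -0.68, Nme2 from -1.21 to -0.95, Vim from -0.85 to -0.66, Hspe1 from -0.97 to -0.68, Eif4a1 from -0.97 to -0.64 and Actg1 from -0.58 to -0.46.

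A last pair of falls rested on a few cells that also carried B-lineage RNA. Ebf1, the transcription factor gene that commits progenitors to the B lineage, had 0, 0 and 0 UMIs in Txnip-KO 1, 2 and 3, against 133 UMIs in all WT Gata3+ ILCs. These came from 6 of 337 WT cells, of which Scrublet marked 4. Against a floor of 3 UMIs over the Txnip-KO group Ebf1 was 27.6-fold lower, a value that takes UMIs as independent. As 1 cell of WT 2 alone held 51 Ebf1 UMIs, it is no lower limit on the fold. A count of 0 of 246 cells with an Ebf1 UMI allows a share of up to 1.22% of cells with such a UMI, which is no limit on cells that express the gene. Ly6d, a surface protein gene of lymphoid progenitors and plasmacytoid dendritic cells, stood at 0, 8.16 and 13.5 CPM in Txnip-KO 1, 2 and 3, against 135, 88.4 and 145 CPM in WT 1, 2 and 3 (-3.91, SE 0.38; edgeR adjusted p = 3.74e-05). It was found in 7 Txnip-KO and 12 WT cells, and lost its call when cells were gated again at 4000 UMIs (-2.36, edgeR adjusted p = 0.0974). Without the 32 cells that held RNA of other lineages, neither gene had enough counts in Gata3+ ILCs to be tested. Ebf1 and Ly6d were among the genes used to choose those cells, so this loss was built in.

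**Figure D4:**
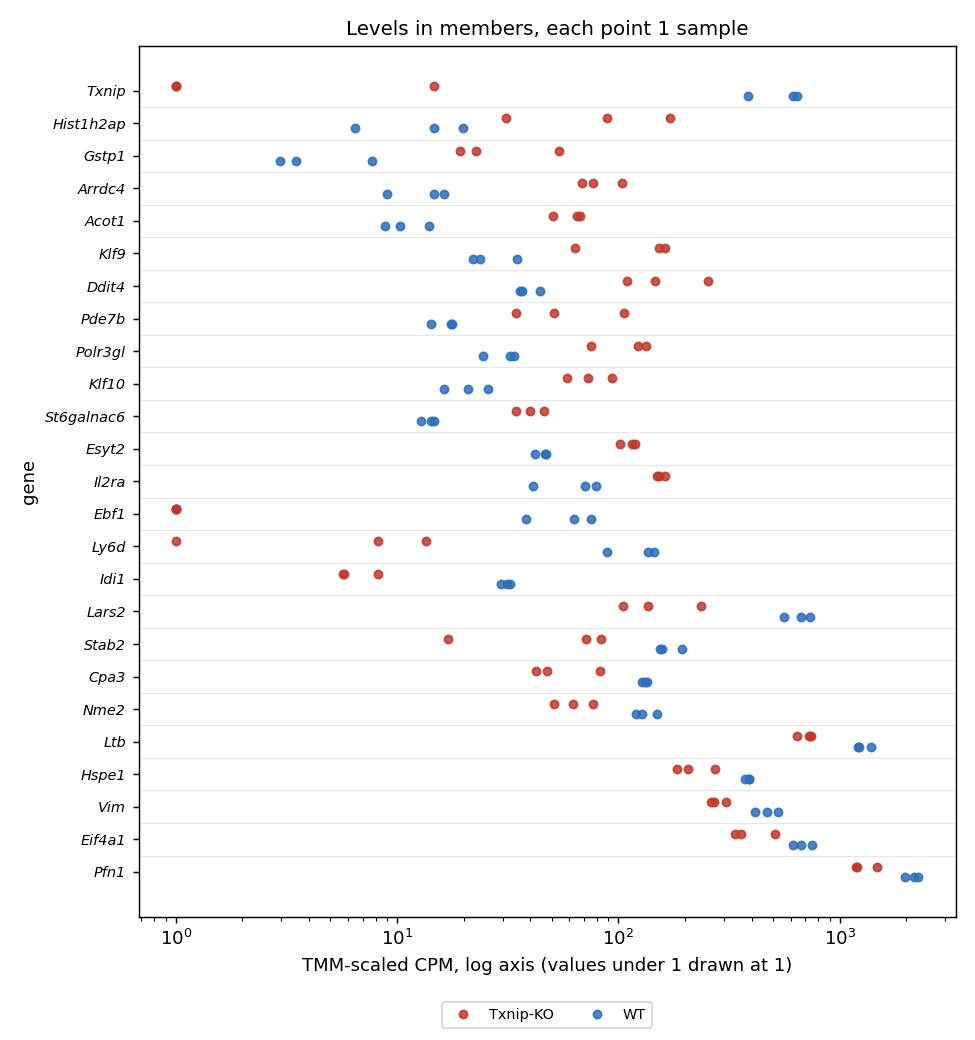
TMM-scaled CPM (x axis, log scale, values under 1 drawn at 1) in members of Txnip and of the 12 largest rises and 12 largest falls among called genes with at least 10 CPM and groups that do not overlap, predicted genes left out (rows), each point 1 sample, Txnip-KO above WT in each row. The rows were chosen for groups apart, so Calca is not among them, and the WT points of Txnip (386 to 642 CPM) lie far right of the Txnip-KO points (0 to 14.7 CPM).

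The remaining called genes differed in size and in how well their calls held. Zfp36l2, an mRNA decay factor, averaged 780.1 ± 177 CPM in Txnip-KO and 364 ± 90.6 CPM in WT (SD, n = 3 each; 1.09, edgeR adjusted p = 0.00574), and lost its call without WT 1 or WT 2 (0.92 to 1.29). Ctla2a, a cathepsin inhibitor (0.87), Clec2i, a ligand gene of NK receptors (0.90), Cd63, a tetraspanin of endosomes (1.21), Emb, embigin (0.72), Rcsd1, an actin-capping regulator (0.76), and the long noncoding RNA Neat1 (0.98) also rose. Each of these 6 lost its call without Txnip-KO 3 and 3 or more other libraries, with fold changes between 0.59 and 1.54 in all such fits. The mitochondrially encoded mt-Co1 rose (0.48, lost without Txnip-KO 3 or any WT library, 0.45 to 0.50) while the other 12 mitochondrially encoded genes were not called. Of 77 ribosomal protein genes, Rpl35 rose (0.69, lost without Txnip-KO 2 or any WT library, 0.45 to 0.81) and Rpl27 fell (-0.70, edgeR adjusted p = 0.000892). The Rpl27 call held in all 18 alternative fits. The last of the 42, the predicted gene Gm42047, fell (-1.69, SE 0.37; 10.5 CPM in Txnip-KO and 35.0 CPM in WT).

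In several gene lists more genes lay below WT than above it, with few calls, and no list was tested as a set. Of 76 nuclear genes of oxidative phosphorylation none was called (0), but the median fold change was -0.20, only 5 stood above 0, and in 22 (28.9%) every Txnip-KO sample lay below every WT sample, against 9.82% of all genes tested. None (0) lay above. Ndufs5, a complex I subunit, stood at 170, 181 and 185 CPM in Txnip-KO 1, 2 and 3, against 245, 253 and 252 CPM in WT 1, 2 and 3 (-0.48, edgeR adjusted p = 0.153). Of 24 endoplasmic reticulum folding and heat shock genes 1 fell, Hspe1, the median was -0.38, and in 11 (45.8%) the Txnip-KO samples lay below all WT samples. Pdia3, a disulfide isomerase, averaged 234 ± 51.4 CPM in Txnip-KO and 382 ± 30.5 CPM in WT (-0.68, edgeR adjusted p = 0.0630), and the chaperone gene Hspa5 143 ± 34.6 and 234 ± 14.7 CPM (-0.70, edgeR adjusted p = 0.0854; SD, n = 3 each). Of 77 ribosomal protein genes, 10 stood above 0, the median was -0.16, and the Txnip-KO samples lay below all WT samples in 22 (28.6%) and above them in 7 (9.09%). Of 10 cholesterol synthesis genes, 4 lay below and none (0) above, with a median of -0.33. S phase genes had 0 of 29 called and a median of -0.24 and G2M genes 0 of 27 and -0.27, against 0.577% called over all genes tested, at which such counts say nothing particular about these lists. Glucose uptake and glycolysis genes had 0 of 19 called and a median of -0.06, thioredoxin and glutathione genes 0 of 22 and -0.11, and interferon response genes 0 of 21 and -0.32.

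FoxO factors and targets had 0 of 21 called and a median of 0.09. Pik3ip1, an inhibitor of PI3-kinase, averaged 137 ± 39.2 CPM in Txnip-KO and 74.7 ± 10.6 CPM in WT (0.86, edgeR adjusted p = 0.0926), and Sesn1, a stress-induced inhibitor of mTORC1, 84.2 ± 13.6 and 142 ± 40.2 CPM (-0.77, edgeR adjusted p = 0.138; SD, n = 3 each). Chemokine receptor and adhesion genes outside the rule had 0 of 13 called, and costimulatory and inhibitory receptors 0 of 13. Receptors for neural, lipid and metabolite signals had 0 of 14 called. Over all genes tested 0.577% were called, at which counts of 0 say nothing particular about lists of this size. Fatty acid and ketone body genes had 1 of 24 called, Acot1, against 0.577% of all genes tested. Oxct1, which opens ketone bodies to oxidation, stood at 19.8, 14.7 and 7.70 CPM in Txnip-KO, against 38.7, 41.3 and 27.9 CPM in WT (-1.38, edgeR adjusted p = 0.09996).

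**Figure D5:**
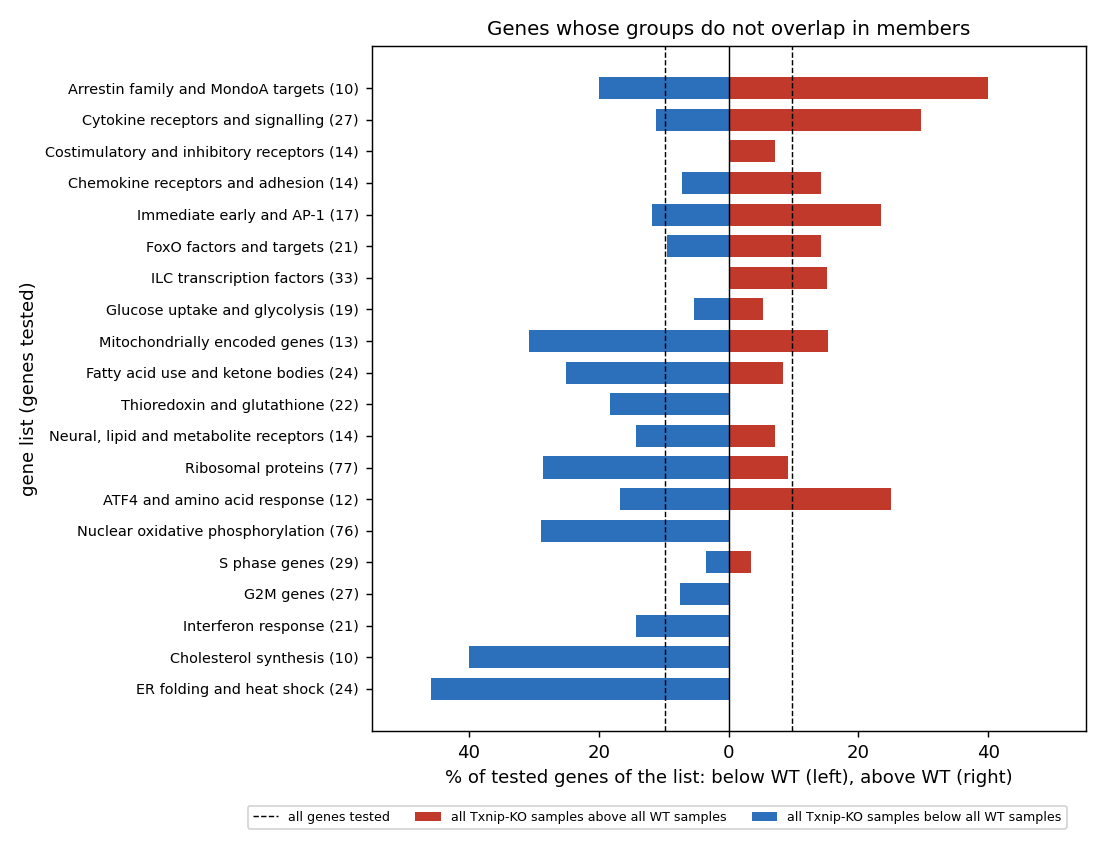
Percent of the tested genes of each list (rows, with the number tested) in which every Txnip-KO sample lay above (right) or below (left) every WT sample in members, with dashed lines at the value for all genes tested (9.77% above and 9.82% below). Endoplasmic reticulum folding and heat shock genes reach 45.8% below and nuclear oxidative phosphorylation genes 28.9% below, both with 0 above, ribosomal protein genes reach 28.6% below and 9.09% above, and cytokine receptors reach 29.6% above.

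The third comparison asked where the effect of genotype in Gata3+ ILCs differed from that in other cells of the same samples, tested in edgeR as the interaction between cell group and genotype, blocked by sample and adjusted by Benjamini-Hochberg. A difference above 0 means that the log2 fold change of Txnip-KO over WT was higher in Gata3+ ILCs. Against 9575 NK-gated cells 26 of 11535 genes differed (0.225%), 13 higher and 13 lower (0.113% each). Against 289 Rora-Tcf7-gated cells 16 of 7457 did (0.215%), 3 higher (0.0402%) and 13 lower (0.174%). Against all 43816 other barcodes 104 of 13935 did (0.746%), 48 higher (0.344%) and 56 lower (0.402%). Levels in these paragraphs are means of the 3 samples, as CPM of each group of cells.

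Ltb differed from all 3. It stood at 637 CPM in Txnip-KO and 1197 CPM in WT Gata3+ ILCs, while in all other barcodes it stood at 109.7 CPM in Txnip-KO and 111 CPM in WT (difference -0.89, SE 0.12; edgeR adjusted p = 2.09e-09). The difference was -0.69 (SE 0.13; edgeR adjusted p = 0.0361) against NK-gated cells and -1.12 (SE 0.16; edgeR adjusted p = 0.00113) against Rora-Tcf7-gated cells. It was as large without the cells that held RNA of other lineages, at -1.001 against all other barcodes and -1.21 against Rora-Tcf7-gated cells.

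Ccr9, the receptor for the gut chemokine CCL25, kept its level in Gata3+ ILCs, at 400.2 CPM in Txnip-KO and 394 CPM in WT, while it fell in NK-gated cells to 60.1 CPM in Txnip-KO, against 119 CPM in WT. The difference was 0.97 (SE 0.15; edgeR adjusted p = 0.0264). NK-gated cells also carried RNA of plasmacytoid dendritic cells. In them 11 markers of those cells, Ccr9 included, summed to 2981 to 3418 CPM in Txnip-KO samples, against 3161 to 5897 CPM in WT samples. The part of such RNA in the Ccr9 result was not tested. Ptms, which encodes the small acidic protein parathymosin, followed the same pattern as Ccr9, at 144 CPM in Txnip-KO and 156 CPM in WT Gata3+ ILCs and at 161 and 347 CPM in NK-gated cells (0.98, SE 0.15; edgeR adjusted p = 0.0228). Sesn1 went the other way, at 76.5 CPM in Txnip-KO and 132 CPM in WT Gata3+ ILCs, against 51.6 and 39.6 CPM in NK-gated cells (-1.17, SE 0.21; edgeR adjusted p = 0.0361). Ctla2a rose in Gata3+ ILCs but was at 233 CPM in Txnip-KO and 266 CPM in WT Rora-Tcf7-gated cells (1.07, SE 0.21; edgeR adjusted p = 0.0215). P2rx7, the ATP receptor, stood at 62.9 CPM in Txnip-KO and 24.5 CPM in WT Gata3+ ILCs, and at 51.3 and 64.4 CPM in Rora-Tcf7-gated cells (1.83, SE 0.37; edgeR adjusted p = 0.0290). Without cells that held RNA of other lineages the differences of Ccr9, Ptms, Sesn1, Ctla2a and P2rx7 were 0.84, 0.96, -1.26, 1.08 and 1.87, all still called. Leaving out single libraries ended each of these calls. Ptms was lost without Txnip-KO 3 (0.88), Ccr9 without Txnip-KO 3 (0.79) or WT 2 (0.83), and Sesn1 without Txnip-KO 2, Txnip-KO 3, WT 1 or WT 2 (-1.34 to -0.96). Ctla2a was lost without Txnip-KO 3 or any WT library (0.82 to 1.14), and P2rx7 without any library but Txnip-KO 1 (1.54 to 1.98). Dropping single libraries cut the count of differing genes against NK-gated cells to 3 without Txnip-KO 3, 13 without Txnip-KO 2 and 13 without WT 2, while it was 40 without Txnip-KO 1 and 39 without WT 3. Against Rora-Tcf7-gated cells it left 5 without WT 1 and 4 without WT 2.

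For Txnip itself the fall did not differ by this test between Gata3+ ILCs and NK-gated cells (-6.47 and -5.23, difference -1.30, SE 0.51; edgeR adjusted p = 0.520). The rises of Arrdc4 were 2.61 and 2.62 (difference -0.01, SE 0.28), and the changes of Lars2 -2.10 and -2.20 (difference 0.07, SE 0.14; edgeR adjusted p = 0.950). Of the 41 named called genes, 3 differed from NK-gated cells (Ly6d, Ebf1 and Ltb), 4 from Rora-Tcf7-gated cells (these and Ctla2a) and 8 from all other barcodes. The 8 were Ly6d, Ebf1, Ltb, Hist1h2ap, Lmo4, Cpa3, Emb and Cd63. Of the 41, 31 were also called in the same direction in NK-gated cells, 23 in Rora-Tcf7-gated cells and 33 in all other barcodes. The share of all genes called in those groups is not given here, and the groups differ in cell number. These counts are therefore not read as a result about the 41. Ifngr1 was called in all 3 groups, and Il18r1 in NK-gated and Rora-Tcf7-gated cells. Lmo4 differed by 0.41 (SE 0.11; edgeR adjusted p = 0.0299) from all other barcodes, in which it was not called (0.27, edgeR adjusted p = 0.101).

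Across the alternative fits, 14 of the 41 named called genes were called in every fit that could test them. They were Txnip, Lars2, Arrdc4, Ebf1, Acot1, Ddit4, Polr3gl, Actb, Ltb, Rpl27, Klf9, Esyt2, Hist1h2ap and Il2ra, and none of the 41 changed sign (0). Of these, Ebf1 could be tested in 12 of the 18 fits, Hist1h2ap in 15 and Acot1 in 16. The fit without cells that held RNA of other lineages could not test Ebf1. The counts depended on single libraries: 13, 12 and 10 genes rose and 13, 13 and 9 fell without WT 1, 2 and 3, and 41 rose and 37 fell without Txnip-KO 2.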

How the data were processed

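The deposited files hold raw UMI counts per gene and cell barcode, made by the authors and not normalized, for 31253 genes and 48277 barcodes of 6 samples. Per the submitters' processing notes the tools were CASAVA 1.8, Cell Ranger 6.1.1 and Seurat 2.3.4. For genome build and annotation, nothing is given in the sources used here. Of the gene IDs, 31184 were found in GENCODE M21 (GRCm38), 30273 with the same symbol.

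Groups were taken from the sample labels. Counts of the Gata3+ ILCs were summed per sample and tested without covariates by edgeR's quasi-likelihood test (filterByExpr, TMM, Benjamini-Hochberg adjustment, threshold 0.05), which was tested on simulated data. Cell groups of the same samples were compared by an interaction with the sample as a block. Shares were compared by two-sided exact permutation tests. Intervals and floors cover counting error only. Doublets were marked with Scrublet (the highest scores, 0.8% per 1000 barcodes) and kept in the main result. The cells held 3950143 of the 445556425 deposited UMIs, and the UMIs per sample limit the precision.

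The members, the 35 gene lists and the tests were chosen with earlier results of these data known. The genes named are Txnip, the 12 largest rises and the 12 largest falls past the threshold with at least 10 CPM and groups apart, leaving out predicted genes, up to 4 genes per list, the 6 strongest differences per direction against other cells, and the 15 genes highest over other barcodes. The other called genes were added after their values were seen, to account for all 42. Alternatives covered normalization, filters on genes and cells, the gate, depth, doublets, dividing cells, a replicate block and each library left out. Same-numbered samples were not treated as pairs. Python 3.11.15 with numpy 2.4.6, scipy 1.17.1, pandas 2.3.3, scanpy 1.11.5, anndata 0.12.19 and matplotlib 3.10.9, and R 4.3.3 with edgeR 4.0.16, limma 3.58.1 and DESeq2 1.42.0 were used.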

Additional observations from a re-analysis of the deposited data

Results flagged for a closer look

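The results below were singled out because the log2 effect of genotype (Txnip-KO over WT) in Gata3+ ILCs differed from that in other cells of the same samples by edgeR's interaction test at an adjusted p under 0.05. Differences above 0 mean a higher effect in Gata3+ ILCs.

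Against NK-gated cells, the difference was 0.98 for Ptms, 0.97 for Ccr9, 1.74 for Pclaf, 1.58 for Hs3st1, 1.48 for Ctsl and 0.51 for Crip1. All 6 genes fell in NK-gated cells, Pclaf, a replication factor, by 1.92 on the log2 scale, and were not called in Gata3+ ILCs. NK-gated cells also carried RNA of plasmacytoid dendritic cells, whose part in these results was not tested. The difference was -1.17 for Sesn1 and -1.21 for Tulp4, which rose in NK-gated cells. It was -5.51 for Hba-a1, -3.12 for Ly6d, -1.94 for Dntt and -4.46 for Cd79a. Hba-a1, a hemoglobin gene with a near-identical copy, was found in 4 of 246 Txnip-KO and 29 of 337 WT Gata3+ ILCs, and its difference was -5.26 without the 32 cells that held RNA of other lineages. Without these cells Ly6d, Dntt and Cd79a were no longer called, but they were among the genes used to choose the cells, so this is no test of them. With Scrublet doublets removed, these 3 were not called either, and Pclaf (2.06, edgeR adjusted p = 0.0719) and Tulp4 (-1.08, edgeR adjusted p = 0.0994) lost their calls. Crip1 and Tulp4 were called in 6 of 10 alternative fits, and Pclaf, Hs3st1 and Ctsl in 7.

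Against Rora-Tcf7-gated cells, the difference was 1.07 for Ctla2a, 1.83 for P2rx7 and 1.47 for Fbxw4. It was -1.12 for Ltb, -3.12 for Nav2, -2.38 for Slfn2, -2.46 for Mpo, -3.49 for Ly6d and -7.42 for Lyz2. Of 543 Lyz2 UMIs in WT Gata3+ ILCs, 494 came from 1 cell. Without cells holding RNA of other lineages Ltb (-1.21), Nav2 (-3.12), Slfn2 (-2.35), Ctla2a (1.08) and P2rx7 (1.87) were still called, and Fbxw4, Mpo, Ly6d and Lyz2 were not. Mpo, Ly6d and Lyz2 were among the genes used to choose the cells left out, so this is no test of them.

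Against all other barcodes, the difference was 6.70 for Jchain, 7.60 for Igha, 6.003 for Igkc, 3.05 for S100a9, 5.09 for Ngp and 3.35 for S100a8. These rested on a Txnip-KO 2 cell with 4622 of the 4660 Igkc UMIs of Txnip-KO Gata3+ ILCs and a Txnip-KO 1 cell with 144 of 160 S100a8 UMIs, and none of the 6 was called without the cells holding RNA of other lineages (0). Jchain, Igkc, S100a9 and S100a8 were among the genes used to choose those cells. The difference was -2.88 for Ly6d, -4.96 for Hba-a1, -2.44 for Nav2, -0.94 for Akap13 and -0.89 for Ltb. The last 4 were called with and without those cells. For Ebf1 the fitted difference was -12.84, which is no bound, since its Txnip-KO count was 0.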

How the results depend on the processing

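Of 25 genes higher and 17 lower in Txnip-KO Gata3+ ILCs, the counts became 95 and 106 with no filter on low counts, 43 and 41 with cells thinned to 2000 UMIs, 38 and 32 with the same number of cells per sample, and 81 and 72 without cells holding Mki67 or Top2a. They were 41 and 22 without cells holding RNA of other lineages and 17 and 11 after gating again at 4000 UMIs, both chosen after seeing the data. Leaving out 1 library gave 10 to 41 higher and 9 to 37 lower. DESeq2's Wald test called 25 and 17. The replicate block gave 31 and 20. Same-numbered samples deviated with r of -0.06, -0.09 and 0.10 over 3380 genes, so the numbers were not read as pairs. Genes whose effect differed from NK-gated cells numbered 26, 147 with no filter, 44 without cells holding RNA of other lineages (chosen after seeing the data) and 3 to 40 with 1 library left out. Against Rora-Tcf7-gated cells they numbered 16, 61 with no filter and 4 to 21 with 1 library left out. Against all other barcodes they numbered 104, and 160 without Scrublet doublets (chosen after seeing the data). The difference in share at 4000 UMIs, Txnip-KO minus WT, was -0.531 points, against -0.148 at 2000 UMIs and -0.281 at 6000 UMIs. Without cells holding RNA of other lineages, the difference changed sign for Ly6d (0.70 against NK-gated cells, 0.28 against Rora-Tcf7-gated cells and 0.93 against all other barcodes), Dntt (0.22 against NK-gated cells) and Jchain (-0.62 against all other barcodes). Ly6d, Dntt and Jchain were among the genes used to choose those cells. Over fits leaving out 1 library, Jchain ran from -0.36, without Txnip-KO 2, to 7.79. In Txnip-KO 2, 1 cell held 856 of the 857 Jchain UMIs of the Gata3+ ILCs. The cause of the sign changes was not tested further. Among alternative fits of single genes in Gata3+ ILCs, those of called genes kept the call in 579 and lost it in 125, and those of genes not called stayed so in 163 and gained a call in 16. Genes under about 10 CPM rested on few UMIs per sample.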

Other observations

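Calca was concentrated in few cells. At least 10 Calca UMIs were found in 13 of 246 Txnip-KO cells and in 0 of 337 WT cells, which allows a share of up to 0.890% of WT cells with such a count. Of the 13 cells, 11 came from Txnip-KO 3, 2 from Txnip-KO 1 and 0 from Txnip-KO 2, so that 2 remained without Txnip-KO 3. The highest single cell held 97 UMIs in Txnip-KO and 9 UMIs in WT.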
